A study of Mus musculus with 4 samples.

Results

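The genes described here are podoplanin (Pdpn), 4 genes that mark lymphatic endothelium (Lyve1, Prox1, Flt4 and Mmrn1) and the gene of CD31 (Pecam1). They were taken by symbol, and all 6 were found among the 23284 gene symbols of each file. The values come from 4 RNA sequencing libraries of stromal cells from mouse large intestine, sorted as living cells that carry podoplanin and lack CD45, CD31 and EpCAM. Each group has 1 library. The first pair is wild type and Rag2 KO on the BALB/c strain, the second is wild type and IL-10 KO on the C57BL/6J strain. The labels give no age, sex, number of pooled animals or form of the deleted alleles. Pdpn is the marker of the sort and Pecam1 the gene of a marker that the sort leaves out, so the level of Pdpn in itself is no finding.

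Podoplanin is a small mucin-like membrane protein of fibroblasts, lymphatic endothelium and mesothelium that binds the platelet receptor CLEC-2 and links to the actin skeleton through ezrin and moesin. Lymphatic endothelium takes its identity from the transcription factor PROX1 and depends on the receptor VEGFR-3, which Flt4 encodes and which binds the growth factors VEGF-C and VEGF-D. In the intestine, lymphatic vessels drain fluid, carry absorbed fat and let leukocytes leave the tissue. CD31 is an adhesion protein found on lymphatic as well as blood endothelium, and also on platelets and many leukocytes, and a sort against CD31 is aimed at removing endothelium of both kinds.

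The RefSeq start regions of Pdpn, the most abundant of these transcripts, and of Mmrn1, the one furthest below wild type in the IL-10 comparison, are shown because these genes differed in opposite directions. Each window holds 250 bases before and 50 bases after the RefSeq start (build GRCm38.p6), on the strand of the gene. The Pdpn window is chr4:143299515-143299814 on the minus strand, and the Mmrn1 window is chr6:60944067-60944366 on the plus strand. The RefSeq start of Pdpn is also the start of its longest RefSeq-linked GENCODE transcript. That of Mmrn1 lies 159 bases before the start of the corresponding transcript (60944476) and within an annotated retained-intron transcript that begins further upstream. Capitals mark matches to 5 motifs searched on both strands.
Pdpn: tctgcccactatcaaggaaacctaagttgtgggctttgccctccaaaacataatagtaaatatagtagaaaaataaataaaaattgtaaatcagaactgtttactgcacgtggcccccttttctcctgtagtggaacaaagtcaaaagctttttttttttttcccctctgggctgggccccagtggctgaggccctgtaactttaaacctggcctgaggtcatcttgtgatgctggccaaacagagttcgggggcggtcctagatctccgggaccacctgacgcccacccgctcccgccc
Mmrn1: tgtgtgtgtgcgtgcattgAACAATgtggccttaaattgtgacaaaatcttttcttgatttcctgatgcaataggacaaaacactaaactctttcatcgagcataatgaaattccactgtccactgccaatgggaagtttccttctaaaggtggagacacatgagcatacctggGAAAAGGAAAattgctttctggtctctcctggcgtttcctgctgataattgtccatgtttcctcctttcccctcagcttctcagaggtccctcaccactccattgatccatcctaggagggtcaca
The motifs were the interferon response core (GAAA, any 2 bases, GAAA), the STAT core TTCNNNGAA, the AP-1 core TGANTCA, the SOX core AACAAT and the ETS core CCGGAA. The Mmrn1 window held 1 match to the SOX core and 1 to the interferon response core, which did not overlap, and the Pdpn window held none. Of 32851 RefSeq windows of this length, 10.7% held the SOX core, 3.44% the interferon response core, 8.30% the STAT core, 7.81% the AP-1 core and 14.9% the ETS core. The windows of Flt4 and Prox1 held no match. These are descriptions of letters and not of binding.

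Expression is given as the authors' FPKM, which by definition divide a gene's fragments by its transcript length and by the mapped fragments of the library. Whether the libraries were also scaled to each other is not given in the sources used here. If they were, the depths below are scaled figures. From the steps between the lowest values, the depth came to about 9900000 (wild type) and 9600000 (labelled Rag2 knockout) fragments in BALB/c, and to 8560000 (wild type) and 8340000 (labelled IL-10 knockout) in C57BL/6J. A fold is the plain ratio of FPKM with a 95% interval for counting error at that depth, and a log2 ratio is the difference in log2 of FPKM plus 1, which is smaller for low genes. Because every group is a single library, nothing here has a replicate error or a test, and "higher" and "lower" describe these libraries. Where a pair is written as 1 value against another, the library labelled knockout comes first and its wild type second. In bulk RNA, fewer cells of a type and less RNA per cell cannot be told apart. Il10 itself had 129.9 FPKM under the IL-10 knockout label and 3.33 in its wild type, and a value for the whole gene does not show whether the deleted part is present. Rag2 was listed at 0.712 FPKM in the library labelled Rag2 knockout and at 0 in the other 3, so both targeted genes were highest under their own knockout label. Xist and Ddx3y, of opposite sexes, were both present in C57BL/6J wild type (23.0 and 16.9 FPKM). Of this pair, Xist alone passed 1 FPKM under the IL-10 knockout label (44.9, with Ddx3y at 0.0269), and Ddx3y alone did so in BALB/c. These genes thus differ within the IL-10 pair and between the wild types. Any effect of sex cannot be told apart there from the knockout label or the strain. Fibroblast markers were high in all 4 libraries, with a summed level of 12748 to 14088 FPKM over 14 genes. Gapdh stood at 0.349 FPKM or less in every library, so a value near 0 in these files need not mean a silent gene.

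Pdpn was higher in both libraries labelled knockout than in their wild types, while Lyve1, Flt4 and Mmrn1 were lower in both. Prox1 was lower for IL-10, and its value for Rag2 was below wild type by less than counting error. Pecam1 followed neither pattern: it was higher in the library labelled IL-10 knockout and near its wild type in the one labelled Rag2 knockout. Among the 13078 genes that reached 1 FPKM in any library, 33.2% were below wild type in both knockout comparisons and 32.9% were above it in both. Of the 6 genes, 4 were below in both and 1 was above in both. These comparisons share no library.

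**Figure D1:**
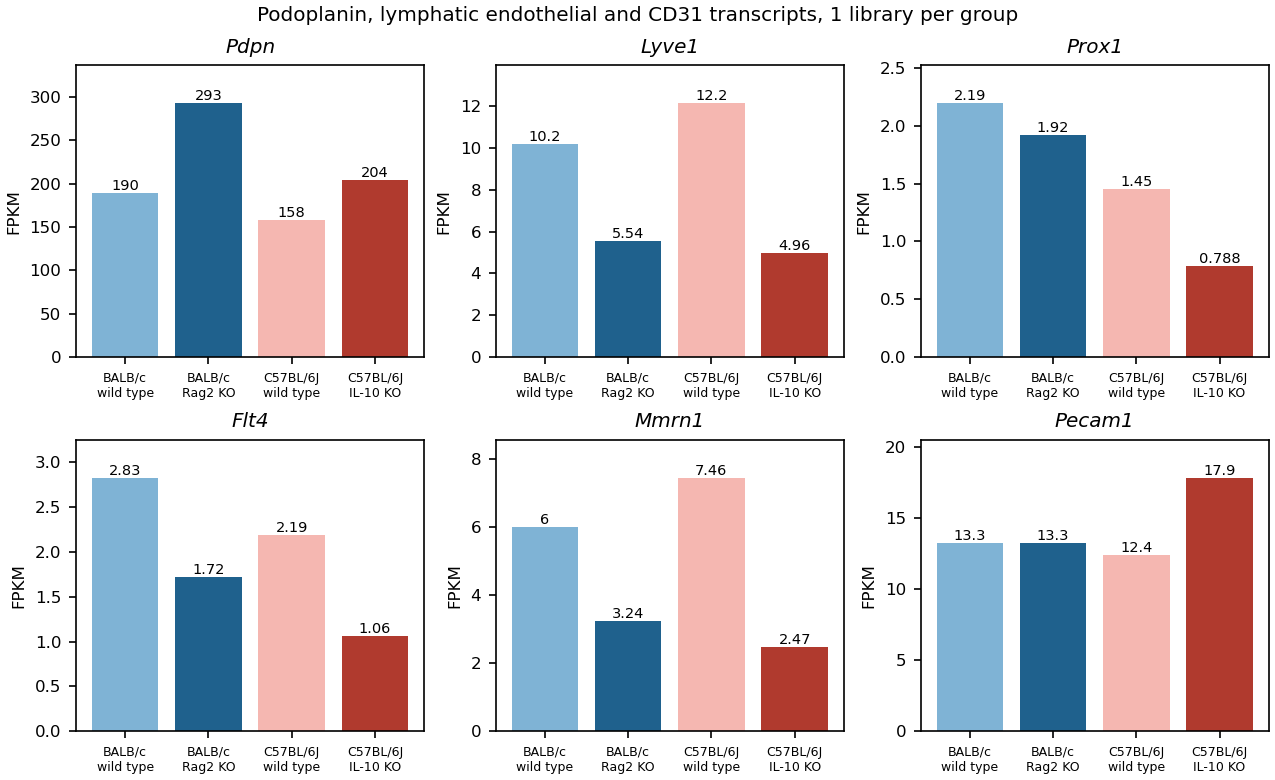
FPKM (vertical axis, from 0) of each of the 6 genes in the 4 libraries, 1 bar per library, with no error bars because each group has 1 library. The bars of Pdpn are taller in both libraries labelled knockout (KO) than in their wild types, those of Lyve1, Prox1, Flt4 and Mmrn1 are shorter (Prox1 for Rag2 within counting error), and Pecam1 stands out in the library labelled IL-10 knockout at 17.9 FPKM.

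Pdpn (ENSMUSG00000028583) lies on the minus strand of chromosome 4, at 143267431 to 143299564 in GRCm38 (mm10), and its longest RefSeq-linked transcript has 6 exons and 1817 nt. In BALB/c it had 189.6 FPKM without and 292.5 with the Rag2 knockout label, and in C57BL/6J 158 FPKM without and 204 with the IL-10 knockout label. It thus ranked between 223rd and 389th among all symbols of a library. Pdpn was 1.54 times as high in the library labelled Rag2 knockout as in its wild type (counting interval 1.47 to 1.62, log2 ratio 0.62), and 1.29 times as high for IL-10 (1.22 to 1.37, log2 ratio 0.37). BALB/c wild type had 1.20 times the level of C57BL/6J wild type (1.14 to 1.27). From highest to lowest the order was the library labelled Rag2 knockout, the one labelled IL-10 knockout, BALB/c wild type and C57BL/6J wild type, and each neighbour in it differed by more than counting error, the closest pair by 1.08-fold (1.02 to 1.13). In the FPKM as reported, both libraries labelled knockout lie above both wild types. The closest pair depends on the scaling. With small RNA rows removed and a common total, the log2 ratio to C57BL/6J wild type was 0.23 for the library labelled IL-10 knockout. For BALB/c wild type it was 0.33, so these neighbours changed places.

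Set against Vim, the vimentin gene of mesenchymal cells, within the same library, Pdpn gave the same order. Pdpn per Vim was 0.131 and 0.121 in the wild types (BALB/c, then C57BL/6J) and 0.209 and 0.156 in the libraries labelled Rag2 and IL-10 knockout. Mesothelium, which also carries podoplanin, was represented by 8 marker genes with summed levels of 7.74 and 21.9 FPKM in those wild types and 33.9 and 61.7 in the libraries labelled Rag2 and IL-10 knockout. Most of that sum was the keratin gene Krt19, which epithelium shares, and the defining gene Msln stood at 0.18 FPKM or less throughout. Wt1, a transcription factor of mesothelium, had 4.33 FPKM for IL-10 against 0.515 in wild type, and for Rag2 1.25 against 1.11, where the interval holds 1 (0.695 to 1.82). Epcam, the epithelial marker that the gate leaves out, had 2.76 and 6.29 FPKM in the wild types against 9.35 (labelled Rag2 knockout) and 21.1 (labelled IL-10 knockout). The part of these cells in the Pdpn values was not tested.

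Lyve1 (ENSMUSG00000030787, chromosome 7, 110850607 to 110863239, minus strand) encodes a hyaluronan receptor of lymphatic capillaries that some tissue macrophages also carry. Its level was 10.2 FPKM in the BALB/c and 12.2 in the C57BL/6J wild type, or about 272 and 280 fragments. The library labelled Rag2 knockout had 5.54 FPKM and the one labelled IL-10 knockout 4.96, or about 143 and 111 fragments. Both wild types are thus higher than both libraries labelled knockout. The level for Rag2 was 0.544 of wild type (0.444 to 0.666, log2 ratio -0.77), and the level for IL-10 was 0.408 of wild type (0.328 to 0.509, log2 ratio -1.14). The libraries labelled knockout, next to each other in the order, differed by 1.12-fold with an interval that holds 1 (0.872 to 1.43). The wild types differed by 1.19-fold, just beyond counting error (1.01 to 1.41).

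Mmrn1 (ENSMUSG00000054641, chromosome 6, 60924976 to 60989378, plus strand) encodes multimerin 1, a secreted protein of lymphatic endothelium and platelets. Its values had the same order as those of Lyve1: 7.46 and 6.00 FPKM in the wild types of C57BL/6J and BALB/c, then 3.24 and 2.47 with the Rag2 and IL-10 knockout labels. Relative to wild type the level was 0.540 for Rag2 (0.437 to 0.666, log2 ratio -0.72) and 0.331 for IL-10 (0.261 to 0.421, log2 ratio -1.28). Of 8 platelet marker genes, Pf4, which encodes platelet factor 4, was above Mmrn1 in 3 libraries, with 15.0 and 6.92 FPKM in the wild types (BALB/c first) and 11.9 and 8.46 under the Rag2 and IL-10 knockout labels. Its fold was 0.794 for Rag2 (0.537 to 1.17) and 1.22 for IL-10 (0.702 to 2.13), and both intervals hold 1. Gp1bb, a subunit gene of the platelet receptor for von Willebrand factor, had 1.35 to 2.65 FPKM. Itga2b, the gene of platelet integrin alpha IIb, had 2.54 against 0.814 FPKM for IL-10 and 1.18 against 0.776 for Rag2. Gp9, Ppbp, Gp1ba, Gp5 and Gp6 stood below 1 FPKM in every library, and Gp6 was listed at 0 in all 4. The part of platelets in the Mmrn1 values was not tested.

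Flt4 (ENSMUSG00000020357, chromosome 11, 49609263 to 49652739, plus strand) encodes VEGFR-3. The wild types had 2.83 (BALB/c) and 2.19 FPKM (C57BL/6J), and the libraries labelled Rag2 and IL-10 knockout 1.72 and 1.06. Each library labelled knockout was lower than its own wild type, by a factor of 0.608 for Rag2 (0.475 to 0.778, log2 ratio -0.49) and 0.482 for IL-10 (0.348 to 0.667, log2 ratio -0.63). Across strains, C57BL/6J wild type and the library labelled Rag2 knockout, which are neighbours in the order, differed by 1.27-fold with an interval that holds 1 (0.974 to 1.67).

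Prox1 (ENSMUSG00000010175, chromosome 1, 190118035 to 190170714, minus strand) was the lowest of the 6 in 3 libraries, and second to Flt4 in the one labelled Rag2 knockout. In BALB/c it had 2.19 (wild type) and 1.92 FPKM (labelled Rag2 knockout), and in C57BL/6J 1.45 (wild type) and 0.788 (labelled IL-10 knockout). Those values rest on about 168, 142, 96 and 51 fragments. The IL-10 level was 0.541 of wild type (0.385 to 0.761, log2 ratio -0.46). For Rag2 it was 0.873 of wild type with an interval that holds 1 (0.698 to 1.09, log2 ratio -0.13), so no difference in Prox1 was detectable at this depth in the Rag2 comparison. Prox1 was 1.51 times as high in BALB/c wild type as in C57BL/6J wild type (1.17 to 1.94), the reverse of Lyve1 and Mmrn1. The annotated genes Prox1os and Gm28172 overlap Prox1 in position (their strands were not compared), and the strand setting of the authors' counting is not given in the sources used here.

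Pecam1 (ENSMUSG00000020717, chromosome 11, 106654217 to 106750628, minus strand) had 13.3 FPKM in both BALB/c libraries, whereas the C57BL/6J wild type had 12.4 and its labelled knockout 17.9. Only the last stands apart: it was 1.44 times its wild type (1.25 to 1.65, log2 ratio 0.49). The other 3 libraries were neighbours whose intervals hold 1, with a Rag2 fold of 0.997 (0.871 to 1.14, log2 ratio -0.0043). Transcripts of the leukocyte gene Ptprc (CD45) were high in the same library, at 43.1 FPKM against 3.34 in its wild type, and in BALB/c they were 11.5 in the library labelled Rag2 knockout against 8.31. Cdh5, the VE-cadherin gene of endothelium, had 6.14 FPKM in that library and 5.45 in its wild type, a fold of 1.13 with an interval that holds 1 (0.920 to 1.38). Other genes of all endothelium varied there, and Tek, Cd93 and Ecscr had larger folds than Pecam1. Of the 18 compared besides Pecam1, 8 were above wild type and 10 below. The part of leukocytes in the Pecam1 value was not tested.

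**Figure D2:**
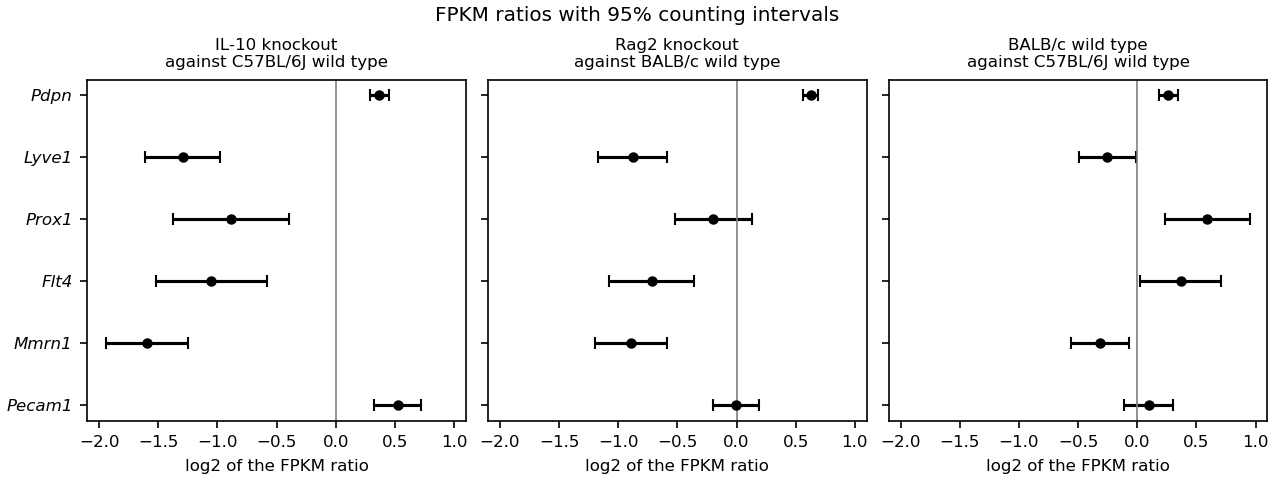
Ratio of FPKM between a pair of libraries for each of the 6 genes (horizontal axis, log2 with nothing added), with bars for the 95% counting interval, in 3 comparisons. In the IL-10 comparison the 4 lymphatic genes lie left of 0 and Pdpn and Pecam1 lie right of it. In the Rag2 comparison the bars of Prox1 and Pecam1 cross 0.

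At the threshold of 2-fold in log2 of FPKM plus 1, Lyve1 and Mmrn1 were lower in the library labelled IL-10 knockout, which makes 2 of the 6 genes beside 3.82% of 12790 genes compared. No member was 2-fold higher, beside 10.1% of genes. In the Rag2 comparison 0 of 6 passed in either direction, beside 4.42% higher and 2.03% lower of 12336 genes. Between the wild types it was also 0 of 6, beside 1.81% higher in BALB/c and 2.17% lower of 12290 genes. The median log2 ratio of Lyve1, Prox1, Flt4 and Mmrn1 was -0.89 for IL-10, -0.61 for Rag2 and 0.015 between the wild types, where the median over all genes compared was -0.0018, -0.0041 and 0.0044. With 5 added to FPKM in place of 1 the medians of the 4 genes shrank to -0.49 for IL-10 and -0.32 for Rag2. The 2-fold call of Lyve1 and of Mmrn1 ends at the same setting (log2 ratios -0.78 and -0.74).

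**Figure D3:**
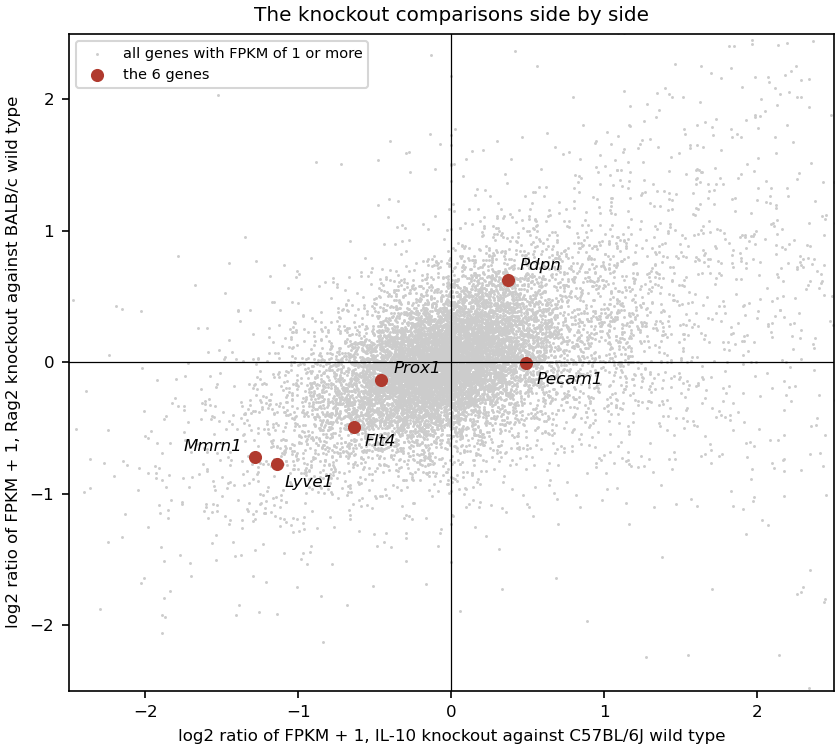
Log2 ratio of FPKM plus 1 in the IL-10 comparison (horizontal) and the Rag2 comparison (vertical), for genes that reached 1 FPKM in any library (grey) and the 6 genes (red). Lyve1, Mmrn1, Flt4 and Prox1 lie in the lower left part and Pdpn in the upper right, and 388 of 13078 genes fall outside the axes.

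The members also differed relative to each other inside a library, which no scaling between libraries can alter. Lyve1 per Cdh5 was 1.74 and 2.23 in the wild types (BALB/c first), but 0.972 and 0.808 under the Rag2 and IL-10 knockout labels. Cdh5 was named after its values were seen, and the ratio depends on that choice. For Rag2, Tie1 and Cldn5 of the same list were 0.541 and 0.461 of wild type, near or below the 0.544 of Lyve1. Of 18 genes of all endothelium other than Pecam1 compared there, 10 were above wild type and 8 below. Pecam1 per Cdh5 was 2.27, 2.32 and 2.28 in BALB/c wild type, Rag2 and C57BL/6J wild type, and 2.91 in the library labelled IL-10 knockout. This ratio also depends on Cdh5. For IL-10, Icam2, Fli1, Tek, Cd93 and Ecscr of the same list had larger folds (1.76 to 3.28) than Pecam1 (1.44). Of the 18 genes other than Pecam1 compared there, 8 were above wild type and 10 below. Pdpn was 18.6 and 13.0 times Lyve1 in the wild types (BALB/c first) and 52.8 and 41.1 times in the libraries labelled Rag2 and IL-10 knockout. Ratios among the 4 lymphatic genes, given without counting intervals, varied between libraries. Lyve1 per Prox1 was 4.65 (wild type) and 2.89 (labelled Rag2 knockout) in BALB/c, and 8.35 (wild type) and 6.30 (labelled IL-10 knockout) in C57BL/6J. The fold intervals of Lyve1 and Prox1 do not overlap for Rag2 (0.444 to 0.666 and 0.698 to 1.09). For IL-10 they do (0.328 to 0.509 and 0.385 to 0.761). Flt4 per Prox1 was 1.29 (wild type) and 0.898 (labelled Rag2 knockout) in BALB/c, and 1.51 (wild type) and 1.34 (labelled IL-10 knockout) in C57BL/6J.

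**Figure D4:**
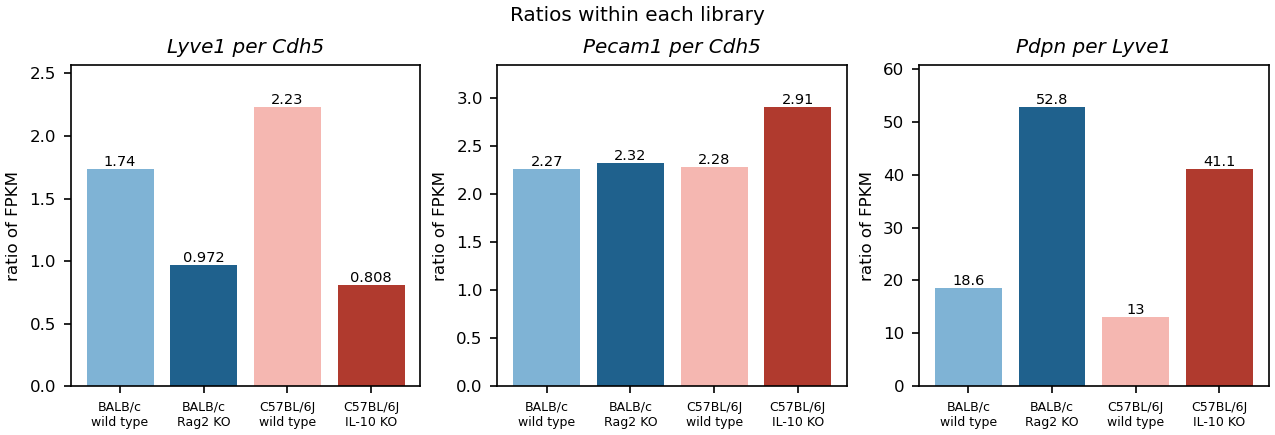
Ratios of FPKM within each library (vertical axes, from 0), 1 bar per library: Lyve1 per Cdh5, Pecam1 per Cdh5 and Pdpn per Lyve1. The libraries labelled knockout (KO) have lower bars for Lyve1 per Cdh5 (0.972 and 0.808) and higher bars for Pdpn per Lyve1 (52.8 and 41.1) than the wild types.

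A list of 30 genes of lymphatic endothelium, of which 25 were found, holds the 4 lymphatic genes above and Thy1, which fibroblasts share. Without these 5 genes, 13 reached an FPKM of 1 in either library of the IL-10 comparison. Of them 1 was at least 2-fold lower (Pard6g), beside 3.82% of all genes, and 0 were higher, beside 10.1%. By any amount, 8 of the 13 were below wild type. In the Rag2 comparison 11 were compared, with 6 below wild type and 0 past 2-fold, beside 4.42% of all genes higher and 2.03% lower. All genes compared were about as often below as above, with medians of -0.0018 (IL-10) and -0.0041 (Rag2). The medians of the 13 and 11 listed genes were -0.17 for IL-10 and -0.16 for Rag2, nearer 0 than those of the 4 lymphatic genes. Over the whole list, members included, 3 of 18 were at least 2-fold lower for IL-10 (Lyve1, Mmrn1 and Pard6g) and 0 of 16 for Rag2, with medians of -0.42 and -0.23. Reln, which encodes the secreted protein reelin, had 0.655 against 1.52 FPKM in wild type for Rag2 and 0.383 against 1.03 for IL-10. Nrp2, the neuropilin that acts as a coreceptor for VEGF-C, had 38.6 against 55.4 FPKM and 37.2 against 65.9 for Rag2 and IL-10, with counting intervals that leave out 1 in both comparisons (0.661 to 0.733 and 0.535 to 0.596 of wild type). Fibroblasts and other cells can express Nrp2 too.

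Ccl21a, whose chemokine draws dendritic cells and lymphocytes into lymphatic vessels, was at 80.7 (BALB/c) and 46.8 FPKM (C57BL/6J) in the wild types and at 46.6 and 34.2 in the libraries labelled Rag2 and IL-10 knockout. Each library labelled knockout was below its wild type, but BALB/c and C57BL/6J wild type lay 1.73-fold apart. Its close copies Ccl21b and Ccl21c were listed at 0 in all 4 libraries, so the split of reads among them is uncertain. Foxc2, a transcription factor of lymphatic valves, stayed below 1 FPKM in every library. Sox18, which acts upstream of Prox1, had 4.12, 3.58, 2.27 and 2.62 FPKM in the order BALB/c wild type, Rag2, C57BL/6J wild type and IL-10, and both knockout intervals hold 1. Pard6g, a polarity protein gene, had 3.001 against 10.7 FPKM for IL-10 and 6.11 against 8.47 for Rag2. Thy1, listed because lymphatic endothelium carries it, is abundant in fibroblasts and was higher in both: 102.8 against 61.7 FPKM for Rag2 and 88.3 against 58.4 for IL-10.

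Genes shared by all endothelium and those of blood vessels had medians nearer 0 than the 4 lymphatic genes. Of 19 genes of all endothelium compared, Ecscr and Cd93 were past 2-fold on the higher side for IL-10, beside 10.1% of all genes. None were on the lower side, beside 3.82%, and the median log2 ratio was -0.12. In the Rag2 comparison 1 of 19 was higher (Ecscr), beside 4.42%, and 0 lower, beside 2.03%, with a median of 0.075. Blood endothelial genes had medians of 0.098 and 0.18 over 10 genes compared. Among them Madcam1, an adhesion molecule gene of mucosal vessels, was at least 2-fold higher for IL-10 (3.24 against 0.943 FPKM), and had 2.30 against 0.910 for Rag2. Efnb2, the ephrin-B2 gene of arteries and also of lymphatic valves, was the only one at least 2-fold lower, and it was so in both: 7.21 against 18.05 FPKM for IL-10 and 9.68 against 22.6 for Rag2. Within the list of all endothelium, the tight junction gene Cldn5 had 1.97 against 3.98 FPKM for IL-10 and 2.56 against 5.56 for Rag2. Tie1, an orphan receptor, had 4.91 against 9.09 FPKM for Rag2 and 4.47 against 4.95 for IL-10, where the interval holds 1 (0.723 to 1.13). Kdr, which encodes VEGFR-2, had 3.11 to 4.33 FPKM in the 4 libraries, with intervals that hold 1 in both knockout comparisons.

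**Figure D5:**
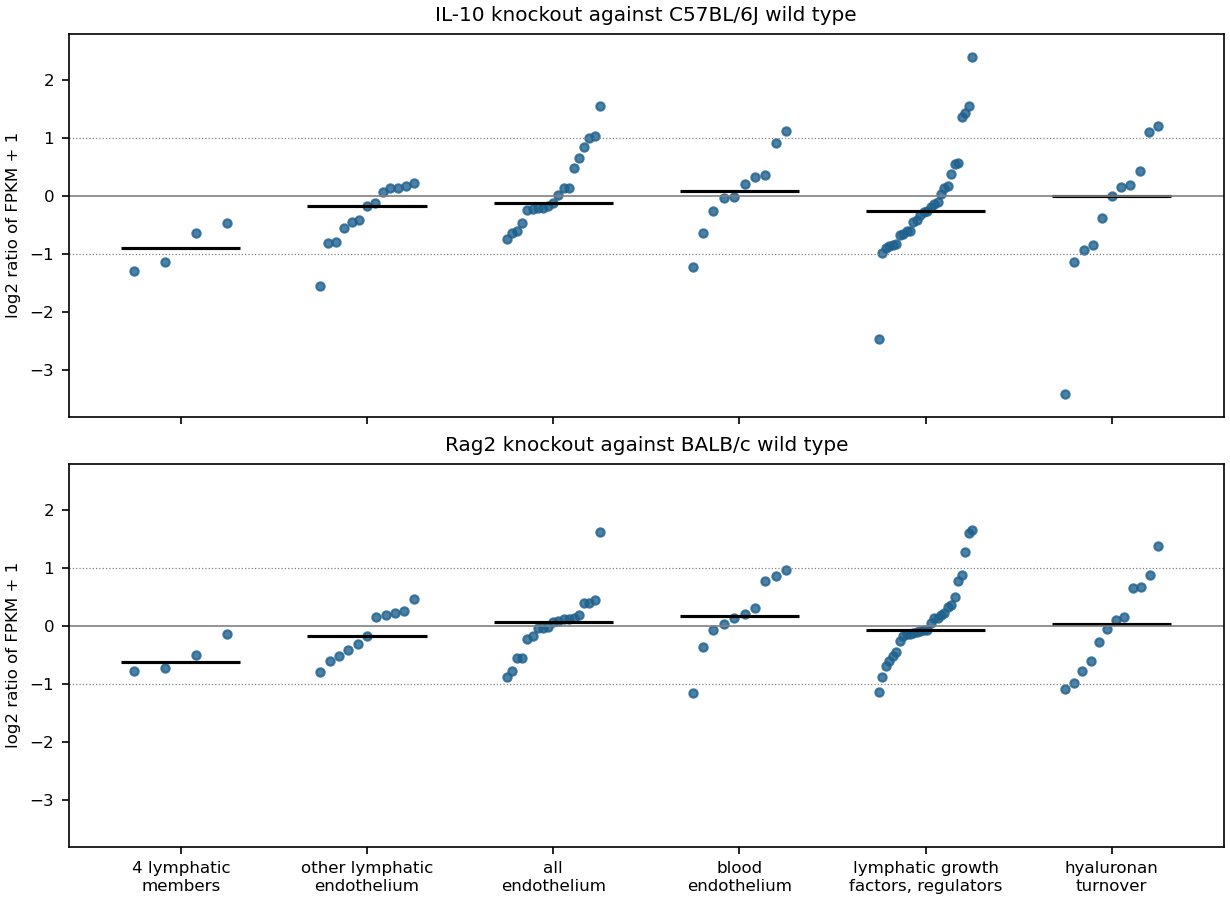
Log2 ratio of FPKM plus 1 (vertical axis) of each gene that reached 1 FPKM in one of the libraries compared, by list, for the IL-10 comparison (top) and the Rag2 comparison (bottom). Black lines are medians, dotted lines mark 2-fold, and the 4 lymphatic genes have medians of -0.89 and -0.61 while the list of all endothelium, drawn with Pecam1, has -0.12 and 0.075.

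Of 28 ligand and regulator genes of lymphatic growth compared, 4 passed 2-fold upward and 1 downward for IL-10 (10.1% and 3.82% of all genes), and 3 upward and 1 downward for Rag2 (4.42% and 2.03%). The median log2 ratios were -0.26 and -0.063. The 2 ligands of VEGFR-3 differed from each other. Figf, the older symbol of the VEGF-D gene Vegfd, had 11.1 (BALB/c) and 16.5 FPKM (C57BL/6J) in the wild types, and 28.4 and 45.9 under the Rag2 and IL-10 knockout labels. It was 2.57 times wild type for Rag2 (2.18 to 3.03) and 2.79 times for IL-10 (2.42 to 3.22), so both libraries labelled knockout stood above both wild types. Vegfc, the main lymphatic growth factor gene in development, had 25.4 against 26.5 FPKM for Rag2 and 16.8 against 21.4 for IL-10, a fold of 0.959 for Rag2 (0.854 to 1.08) and 0.785 for IL-10 (0.678 to 0.909). The receptor gene Flt4 was thus lower in the same libraries in which the ligand gene Figf was higher.

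Angpt2, a ligand of the receptor TIE2 needed for lymphatic patterning, had 0.682 against 2.08 FPKM in wild type for Rag2 and 0.578 against 1.87 for IL-10. Relative to wild type this is 0.328 (0.203 to 0.530) and 0.310 (0.178 to 0.540). Tek, which encodes TIE2, was higher instead, with 10.8 against 7.94 FPKM for Rag2 and 24.2 against 11.6 for IL-10. Angptl4, an inhibitor of lipoprotein lipase, had 77.6 against 24.0 FPKM for Rag2 and 29.6 against 9.38 for IL-10. Sema3f, whose product binds neuropilin 2, had 8.63 against 51.8 FPKM for IL-10, and 29.6 against 42.5 for Rag2. Ramp3, a partner of the adrenomedullin receptor, had 44.3 against 7.56 FPKM for IL-10, whereas in the Rag2 comparison it had 7.43 against 9.00, with an interval that holds 1 (0.607 to 1.12). Whether these effects differ between the comparisons was not tested.

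Partners of podoplanin stayed mostly within 2-fold. Of 12 compared in each case, 1 passed 2-fold, beside 10.1% (IL-10) and 4.42% (Rag2) of all genes upward, and it was higher both times: Cd177, a neutrophil surface protein gene, with 13.2 against 0.365 FPKM for IL-10 and 2.92 against 0.0400 for Rag2. Clec1b, the CLEC-2 gene of platelets and some myeloid cells, was listed at 0 in 2 libraries, the BALB/c wild type and the one labelled IL-10 knockout, and had 0.132 FPKM or less in the others. Among genes of the cytoskeletal linkers, Msn (moesin) had 105.7 against 79.2 FPKM for Rag2 and 113.7 against 72.6 for IL-10. Ezr (ezrin) had 52.2 against 27.6 FPKM for IL-10 and 27.4 against 25.2 for Rag2. Cd44, another hyaluronan receptor and a partner of podoplanin, ranged from 42.5 to 59.1 FPKM.

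Lyve1 binds hyaluronan, a sugar polymer whose synthases and partners form another list. Has1, a hyaluronan synthase gene, had 620.8 (BALB/c) and 599.7 FPKM (C57BL/6J) in the wild types, against 1150.5 and 1387 under the Rag2 and IL-10 knockout labels. Has2, a second synthase gene, was lower in both, with 26.9 against 41.2 FPKM for Rag2 and 24.3 against 44.1 for IL-10. Tnfaip6, whose product TSG-6 modifies hyaluronan in inflammation, had 718.7 against 455.3 FPKM for Rag2 and 1352 against 623.7 for IL-10. Over the whole list of hyaluronan genes, 2 of 11 passed 2-fold upward (Has1 and Tnfaip6) and 2 downward (Lyve1 itself and Hapln1) for IL-10, beside 10.1% and 3.82% of all genes. For Rag2 1 of 12 did so each way (Vcan upward, Hapln3 downward), beside 4.42% and 2.03%. Hapln1, a link protein gene of hyaluronan matrix, had 0.417 against 14.0 FPKM for IL-10 and 16.1 against 32.6 for Rag2.

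Macrophage markers moved with the IL-10 comparison in the direction opposite to Lyve1. In it 8 of 10 macrophage genes compared passed 2-fold upward, beside 10.1% of all genes, and 0 downward (median 2.32), and the 12 genes found summed to 793 FPKM against 116 in wild type. In the Rag2 comparison 2 of 12 were higher, beside 4.42% (median 0.51), and the sums were 351 FPKM against 189 in wild type. Folr2, a gene of resident macrophages, was below wild type beyond counting error in both comparisons. Folr2, at 3.80 and 4.71 FPKM in the C57BL/6J and BALB/c wild types, stood at 0.395 of wild type for IL-10 (0.206 to 0.757) and 0.577 for Rag2 (0.358 to 0.931). Cd163, another such gene, had 0.883 against 1.41 FPKM for Rag2 (0.415 to 0.950 of wild type) and 0.510 against 0.789 for IL-10, where the interval holds 1 (0.359 to 1.16). Timd4 had 1.42 against 1.22 FPKM for Rag2 (0.667 to 2.01) and 0.303 against 0.523 for IL-10 (0.193 to 1.73), and both intervals hold 1. Mrc1 of the same list went the other way from Folr2 for IL-10, at 1.88 times wild type with an interval that leaves out 1. For Rag2, Mrc1 was 1.04 times wild type, and the interval holds 1 (0.869 to 1.25). Of 12 macrophage genes, 8 were above wild type in both comparisons, Mrc1 among them, and 2 below in both (Folr2 and Cd163). The part of macrophages in the Lyve1 values was not tested.

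The genes with profiles closest to 3 of the members were found by the largest difference between centred log2 profiles over the 4 libraries, among 8820 genes. For Pdpn they were Igf2bp2, Fbxl5 and Nup93, which stayed within 0.069 of it in every library. Adam19, Fam102b and Mypop lay within 0.083 of Lyve1, and Sun1, Zfp142 and Arid5b within 0.070 of Prox1. With 4 libraries many genes share a profile, and the likeness is a description.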

How the data were processed

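Messenger RNA of 4 libraries, 1 per group, was analysed from the deposited FPKM values, 1 per gene symbol (23284 symbols, 0 repeated). Per the submitters' processing notes, the authors' tools were Cuffdiff 2.2.1, TopHat2 2.1.1, SAMtools 0.1.18 and Bowtie2 2.2.8 on the build mm10, and per the labels' protocols the kit was a stranded mRNA kit. Not given in the sources used here are the annotation, strand setting and library normalization. Groups follow the sample titles. From the FPKM, log2 of FPKM plus 1 and plain folds were computed in Python 3.11.15 with numpy 2.4.6 and pandas 2.3.3. A gene entered a comparison when it reached 1 FPKM in one of its libraries, and 2-fold was the threshold.

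Depth was estimated from low FPKM of genes with 1 annotated transcript over 1000 nt, with 200 nt taken off the length. At the chosen depth between 75.3% and 76.9% of the genes used (594 to 648 a library) lay within 0.1 of a whole number of fragments. The estimate was also run on simulated fragments drawn with the same 200 nt rule and from the same kind of genes. That run cannot test the 200 nt rule, the lengths the authors used or the library normalization. Counting intervals (95%) treat fragments as independent, which PCR copies are not, and use the longest RefSeq-linked transcript of GENCODE M21, so they are approximate for genes with several transcripts. The members and lists were chosen with earlier results of these data known. Genes to be named were the members, up to 8 of each list by largest ratio plus the sort markers, and 3 nearest profiles for Pdpn, Lyve1 and Prox1; Vim, Vegfc, Reln, Nrp2, Foxc2, Sox18, Cdh5, Kdr, Has2, Cd163, Timd4, Pf4, Gp1bb, Itga2b, Madcam1, Hapln1, Lepr and other list genes beyond the largest ratios were named after their values were seen. No promoter window was used for Lyve1 and Pecam1.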

Additional observations from a re-analysis of the deposited data

Results flagged for a closer look

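In the lymphatic growth list (28 genes found) and the podoplanin partner list (13), 5 genes had log2 ratios on opposite sides of 0 in the knockout comparisons. Neither counting interval held a fold of 1, and each gene reached 5 FPKM in its highest library. The share of all genes that meet this rule was not computed. Genes of other lists met it too, such as Lum of fibroblasts (0.32 for IL-10, -0.36 for Rag2) and Eng of all endothelium (-0.17 and 0.45). The difference between the comparisons was not tested, since each rests on 1 library a side. Hgf, a growth factor gene, had -0.41 for IL-10 and 0.50 for Rag2. Emilin1, whose product anchors lymphatic vessels to elastic fibres, had -0.896 and 0.23. Svep1, a matrix protein gene needed for lymphatic remodelling, had -0.45 and 0.14. For the semaphorin receptor gene Plxna1 the values were -0.61 and 0.15. Rock2, a kinase gene downstream of RhoA, had -0.42 and 0.15.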

How the results depend on the processing

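No paired analysis was possible because each group has 1 library. No ratio of the 6 genes or of the 4 lymphatic genes' median changed direction beyond counting error at any setting. The settings were a pseudocount of 0.1 or 5, rescaling by the median of ratios, and removal of small RNA rows with rescaling to a common total. A pseudocount cannot change the direction of a single gene's ratio. The median of ratios shifted the comparisons by only 0.026 (IL-10), -0.025 (Rag2) and 0.0057 log2 (wild types). These settings could therefore hardly change a direction. The last rescales the libraries by -0.14 log2 in both knockout comparisons, and Pdpn became 0.23 for IL-10 and 0.48 for Rag2. With pseudocounts of 0.1 and 5 the median of the 4 lymphatic genes was -1.13 and -0.49 for IL-10, and -0.78 and -0.32 for Rag2. The count of lymphatic list genes past 2-fold was 5 (all lower) and 0 for IL-10 with those pseudocounts, against 3 as reported. At 1.5-fold it was 7 (1 higher and 6 lower). For Rag2 it was 1 (lower) with a pseudocount of 0.1 and 5 (1 higher and 4 lower) at 1.5-fold. Between the wild types it was 1 (lower in BALB/c) and 4 (3 higher and 1 lower), and both comparisons had 0 as reported. The shares of all genes at these settings were not computed, so the counts have no background beside them. The shifts in medians and counts follow from the settings, since a larger pseudocount shrinks the ratios of low genes. Among the 6 genes, depth limits Prox1 most in the IL-10 comparison, at about 51 fragments in the lower library, and Flt4 most in the Rag2 comparison, at about 100.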

Other observations

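Genes of fibroblastic reticular cells, the podoplanin-positive stroma of lymphoid tissue, were mostly above wild type in the same libraries. In both comparisons 8 of 12 were above, beside 32.9% of all genes, and 2 of 12 below, beside 33.2%. Of 12 compared for IL-10, 5 were at least 2-fold higher, beside 10.1% of all genes, and 0 lower (median log2 ratio 0.57). Of 11 for Rag2, 3 were higher, beside 4.42%, and 0 lower (0.64). The 2 below wild type in both were Ccl21a and Lepr, the leptin receptor gene, which had 57.7 against 76.0 FPKM for Rag2 and 38.9 against 67.5 for IL-10. Vcam1, an adhesion molecule gene, had 263.2 against 75.1 FPKM for Rag2 and 181.7 against 80.3 for IL-10. Cxcl13, the B cell chemokine gene, had 223 against 73.1 FPKM for Rag2 and 124 against 72.4 for IL-10. Ccl19 was listed at 0 in C57BL/6J wild type and had 3.26 FPKM in its labelled knockout.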
